A study of Mus musculus with 12 samples.

Results

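The genes described here are 9 that encode proteins or enzymes of the myelin sheath, Mbp, Mog, Mag, Mobp, Cnp, Cldn11, Mal, Ugt8a and Ermn, taken as the rows of the deposited table listed under those symbols. All 9 were found among the 23079 genes listed, and all 9 passed the filter on low counts that 15685 genes passed. The series holds RNA of midbrain dopaminergic neurons of C57BL/6 mice from 2 regions, the pars compacta of the substantia nigra (SNpc below) and the ventral tegmental area (VTA below), with no treatment named in either group, and the labels call the samples TRAP samples. TRAP usually stands for translating ribosome affinity purification, which pulls a tagged ribosome out of tissue together with the RNA bound to it. The sources used here do not name the tagged protein, its driver, the age of the mice or the number of animals behind a library, and no sample of whole tissue or of unbound RNA was analysed, so no enrichment over tissue is given. SNpc columns 4 and 5 held identical counts and so did VTA columns 2 and 3, so each pair differed by less than the sampling noise and was counted as 1 sample, which left 5 libraries per region. The labels do not tie libraries to animals, and p-values therefore reflect variation among these libraries, some of which may be technical.

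Myelin is made in the brain by oligodendrocytes, which wrap axons in stacked sheets of their own membrane, and neurons do not build it. Compaction of the sheets depends on myelin basic protein on the cytoplasmic face and on membrane proteins and galactolipids within the sheet, while other proteins sit at the edges of the sheath and hold it to the axon. Oligodendrocytes carry some myelin messages, that of Mbp above all, far out into their processes before they are translated, and fibre tracts run through and beside both midbrain regions. In bulk RNA, fewer cells of a type and less RNA per cell cannot be told apart.

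Start regions of 4 of the genes are shown, 3 that hold the letters of a myelin regulator and 1, that of Ugt8a, that does not. Myrf, a transcription factor that oligodendrocytes need to turn on myelin genes, binds DNA at sites with CTGGCAC or CTGGTAC at their core, and Sox proteins such as Sox10 at sites with ACAAAG or ACAATG. The 250 bases before the start of each gene were searched on both strands in RefSeq start regions of build GRCm38.p6, which held 8 of the 9 genes, and capitals mark the letters found. The Mag region is chr7:30914864-30915113 and the Mog region chr17:37023399-37023648, both on the minus strand. RefSeq lists 3 starts for Mag, of which 2 have the Myrf letters before them, and the first is shown. The Cnp region is chr11:100574689-100574938 on the plus strand and the Ugt8a region chr3:125938653-125938902 on the minus strand.
Mag: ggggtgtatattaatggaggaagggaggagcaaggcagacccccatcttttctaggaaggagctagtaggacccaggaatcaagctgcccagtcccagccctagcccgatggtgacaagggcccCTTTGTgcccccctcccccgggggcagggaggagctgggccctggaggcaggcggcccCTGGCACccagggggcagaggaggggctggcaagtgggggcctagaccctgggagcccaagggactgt
Mog: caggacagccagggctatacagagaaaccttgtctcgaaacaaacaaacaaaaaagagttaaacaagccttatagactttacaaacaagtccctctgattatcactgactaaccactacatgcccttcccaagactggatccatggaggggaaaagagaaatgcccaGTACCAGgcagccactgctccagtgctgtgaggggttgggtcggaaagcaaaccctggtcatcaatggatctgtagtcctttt
Cnp: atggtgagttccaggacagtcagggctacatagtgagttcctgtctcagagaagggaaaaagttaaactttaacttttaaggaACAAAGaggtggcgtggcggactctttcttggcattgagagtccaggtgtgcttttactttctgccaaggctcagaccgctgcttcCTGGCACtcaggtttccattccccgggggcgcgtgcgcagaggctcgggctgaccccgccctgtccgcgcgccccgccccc
Ugt8a: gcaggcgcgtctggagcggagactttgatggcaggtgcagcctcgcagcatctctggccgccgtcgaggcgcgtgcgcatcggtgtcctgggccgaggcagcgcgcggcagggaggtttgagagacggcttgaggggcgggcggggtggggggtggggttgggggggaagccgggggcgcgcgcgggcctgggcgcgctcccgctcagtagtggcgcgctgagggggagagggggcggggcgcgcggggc
Myrf letters were found for 3 of the 8 genes, Mag, Mog and Cnp, and stand in 5.93% of all 32851 regions of that length. Sox letters were found for 4 of the 8, Mag, Mobp, Cnp and Ermn, and stand in 25.2% of all regions. These shares count regions, 32851 for 27025 genes, while a gene was counted if any of its starts had the letters. The 2 are thus not in the same unit. The Ugt8a region holds none of these letters, and neither do those of Cldn11 and Mal. G and C made up 76.8% of the Ugt8a region, 66.0% of the Mag region shown, 63.6% for Cldn11 and 46.8% for Mog. A match is a description of letters, not of binding.

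Total counts ran from 62356964 to 81393907 per library. The labelled cell type was plain in every library: summed over 14 dopaminergic genes, which include Th, the enzyme that limits dopamine synthesis, and Slc6a3, the dopamine transporter, values in CPM, the field's usual scaling of counts to 1 common library size, ran from 13781 to 20062 in SNpc and from 7584 to 11119 in VTA. The library sizes behind all CPM values carry TMM scaling factors. SNpc library 4 stood apart from the other SNpc libraries, with 13781 CPM for the dopaminergic list against 16487 to 20062, and results are given with and without it. It also held the highest value of 8 of the 9 myelin genes, so leaving it out moves those genes towards VTA by construction. Fits without it describe the remaining libraries and are no independent test of these genes. Over all genes tested, 7.89% were more than 2-fold above the mean of the other SNpc libraries in SNpc library 4. For the other SNpc libraries, each set against the mean of the remaining ones with SNpc library 4 left out, the share was 3.21% to 4.85%. In VTA, each library against the other 4, it was 1.77% to 5.35%, with VTA library 1 the highest.

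Myelin RNA was a small and uneven part of the libraries. The 9 genes together took from 0.0209% of the reads, in SNpc library 1, to 0.105%, in SNpc library 4. Their summed CPM in SNpc, given in the order 1, 2, 3, 4 and 6 of the libraries, was 219, 313, 403, 1007 and 282. In VTA, in the order 1, 2, 4, 5 and 6, it was 701, 589.8, 707, 582 and 581. The VTA libraries lay close together, whereas SNpc held the lowest 4 values of the series and the highest. The VTA mean was 632 ± 65.6 (SD, n = 5) and the SNpc mean 445 ± 321 (SD, n = 5), or 304 ± 76.4 (SD, n = 4) without SNpc library 4. SNpc library 4 was the highest of all 10 libraries for 8 of the 9 genes, where 10.1% of all genes tested had their highest value in it, and SNpc library 1 was the lowest for 8.

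**Figure D1:**
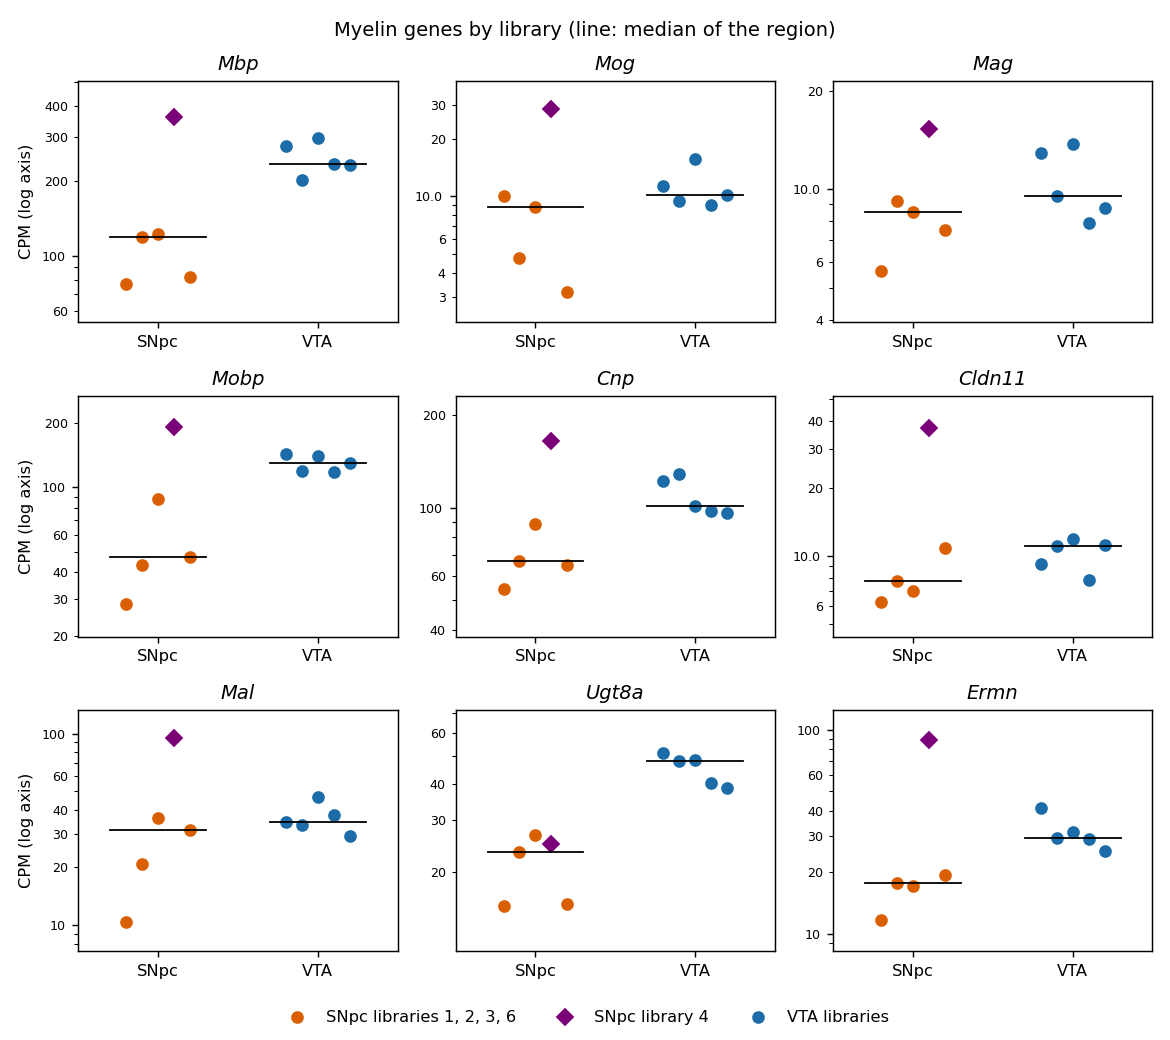
CPM (log axis, TMM-scaled) of each of the 9 myelin genes in each library, with SNpc on the left and VTA on the right of every panel and a line at the median of the region. SNpc library 4 (diamond) lies above all VTA libraries in 8 panels, and for Ugt8a it lies among the other SNpc libraries, at 24.96 CPM.

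Among the 9 genes, Mbp gave the largest signal in every library. Mbp (Entrez 17196, mm10 chromosome 18, 82475146 to 82585637, plus strand) encodes myelin basic protein, which glues the cytoplasmic faces of the sheath together. The SNpc values were 77.4, 119, 122, 359.7 and 82.2 CPM (libraries 1, 2, 3, 4 and 6). The VTA values were 275, 201, 297, 235 and 231 CPM (libraries 1, 2, 4, 5 and 6). All SNpc libraries but SNpc library 4 lay below all VTA libraries, and that library lay above them. The log2 fold change, SNpc minus VTA, was -0.70 ± 0.43 (SE), which missed the threshold (edgeR adjusted p = 0.233). Without SNpc library 4 it was -1.24 ± 0.16, or 2.37-fold higher in VTA, and passed (edgeR adjusted p = 2.05e-05). With SNpc library 4 kept, Mbp also passed with limma-voom (-0.94, limma adjusted p = 0.0134). The Mbp locus also makes longer Golli transcripts, which are found in neurons and other cells, and a count per gene does not separate them.

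Mobp (Entrez 17433, chromosome 9, 120149707 to 120181484) encodes a small basic protein of the same cytoplasmic face. In VTA its mean of 130 CPM came next after that of Mbp. In SNpc without library 4 its mean was 51.7 CPM, below the 68.6 CPM of Cnp. The values of Mobp were 28.5, 43.0, 88.0, 193 and 47.2 CPM in SNpc and 143, 119, 140, 118 and 131 CPM in VTA, in the same order of libraries. Its 4 lower SNpc libraries spread 3.09-fold from lowest to highest and the VTA libraries 1.21-fold. The fitted difference, -0.70 ± 0.49 log2 units (SE) with edgeR adjusted p = 0.296, became -1.27 ± 0.26 without SNpc library 4 (edgeR adjusted p = 0.00174). With SNpc library 4 kept, Mobp also passed with limma-voom (-1.04, limma adjusted p = 0.0175). Exons of Mobp overlap the model Gm38642 over 79 bases on the same strand.

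Mal and Cldn11 encode membrane proteins that cross the bilayer several times. Mal (Entrez 17153, chromosome 2, 127633226 to 127656695) takes part in sorting proteins to the myelin membrane, and it stood at 10.4, 21.0, 36.1, 94.7 and 31.3 CPM in SNpc and 34.5, 33.4, 46.9, 37.6 and 29.3 CPM in VTA. Cldn11 (Entrez 18417, chromosome 3, 31149920 to 31164324) forms the tight junctions between the layers of central myelin, and its values were 6.25, 7.77, 7.01, 37.0 and 10.8 CPM in SNpc and 9.20, 11.1, 11.96, 7.81 and 11.2 CPM in VTA. For both genes the regions overlapped even without SNpc library 4. Their log2 fold changes were 0.09 ± 0.50 and 0.42 ± 0.44 (SE, edgeR adjusted p = 0.906 and 0.487). Without SNpc library 4 both turned to the VTA side, at -0.50 ± 0.27 and -0.31 ± 0.23, and neither passed (edgeR adjusted p = 0.166 and 0.302).

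The surface proteins of the sheath were scarce, as Cldn11 was. Mag (Entrez 17136, chromosome 7, 30899176 to 30914873) encodes the glycoprotein that holds the innermost layer to the axon, and its values were 5.63, 9.22, 8.53, 15.3 and 7.52 CPM in SNpc and 12.9, 9.54, 13.8, 7.91 and 8.80 CPM in VTA. Mog (Entrez 17441, chromosome 17, 37010743 to 37023398), a glycoprotein of the outermost layer and a target of antibodies in demyelinating disease, stood at 10.1, 4.79, 8.84, 28.6 and 3.15 CPM in SNpc and 11.3, 9.49, 15.6, 8.97 and 10.1 CPM in VTA. The regions overlapped for both, with and without SNpc library 4. The fitted difference was -0.20 ± 0.26 log2 units (SE) for Mag and -0.0012 ± 0.48 for Mog (edgeR adjusted p = 0.586 and 0.999), and without SNpc library 4 they were -0.39 ± 0.24 and -0.66 ± 0.31 (edgeR adjusted p = 0.208 and 0.105). The spread of Mog within SNpc was larger than counting error: its lowest count was 195, in SNpc library 6, with an exact 95% Poisson interval of 169 to 224, and SNpc library 1 held 634, with 586 to 685. Such intervals cover counting error only.

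Cnp and Ermn act in the cytoplasm of the sheath. Cnp (Entrez 12799, chromosome 11, 100574904 to 100591729), the cyclic nucleotide phosphodiesterase that keeps cytoplasmic channels in myelin open, stood at 54.2, 66.8, 88.7, 165 and 64.8 CPM in SNpc and 122, 129, 101, 97.8 and 95.7 CPM in VTA. Ermn (Entrez 77767, chromosome 2, 58045113 to 58052864), which encodes the actin-binding protein ermin of mature oligodendrocytes, was at 11.7, 17.7, 17.2, 89.0 and 19.5 CPM in SNpc and 41.6, 29.5, 31.6, 29.0 and 25.4 CPM in VTA. Both had 4 SNpc libraries below all VTA libraries and SNpc library 4 above them, and Ermn was 5.39-fold higher there than the mean of the other SNpc libraries. The log2 fold changes of -0.31 ± 0.27 and -0.02 ± 0.54 (SE, edgeR adjusted p = 0.398 and 0.983) became -0.61 ± 0.15 and -0.87 ± 0.19 without that library, and then passed (edgeR adjusted p = 0.00354 and 0.00153). Exons of Cnp overlap Dnajc7 over 154 bases and those of Ermn overlap Galnt5 over 237 bases, each on the opposite strand, so reads there could belong to either gene.

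Ugt8a behaved otherwise. It encodes the galactosyltransferase that makes galactosylceramide, the main lipid that sets myelin apart from other membranes (Entrez 22239, chromosome 3, 125865271 to 125938619). Its values were 15.2, 23.4, 26.8, 24.96 and 15.4 CPM in SNpc and 51.2, 48.1, 48.3, 40.5 and 38.9 CPM in VTA. The regions did not overlap, and SNpc library 4 lay within the range of the other SNpc libraries. Ugt8a was 2.15-fold higher in VTA, at -1.10 ± 0.17 log2 units (SE, edgeR adjusted p = 9.56e-05), and -1.10 ± 0.19 without SNpc library 4 (edgeR adjusted p = 2.37e-04). It passed in all 23 alternatives run, with edgeR, limma or DESeq2 adjusted p from 2.56e-08 to 9.30e-04.

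Over the 9 genes, 1 was called higher in VTA, Ugt8a, where 20.4% of all genes tested were, and 0 were called higher in SNpc, where 17.8% were (edgeR quasi-likelihood test, adjusted p under 0.05, and 38.2% called in either direction). At an unadjusted p under 0.05 the numbers were the same, 1 and 0, but the share of all genes at that bound was not computed. DESeq2 also called 1 higher in VTA and 0 higher in SNpc, where it called 3384 and 3256 of all genes. Without SNpc library 4, 5 were called higher in VTA against a background of 20.1%, namely Mbp, Mobp, Cnp, Ermn and Ugt8a, and 0 higher in SNpc against 20.9% (40.9% in either direction). The same 5 genes were those whose regions did not overlap without that library, where VTA lay wholly above SNpc for 18% of the genes tested. With all libraries this held for 1 gene, against 14.6%. The median log2 fold change of the 9 genes was -0.20, against -0.04 over all genes tested, and without SNpc library 4 it was -0.66 against -0.01. That library was the highest for 8 of the 9 genes, so the counts without it are no independent test.

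**Figure D2:**
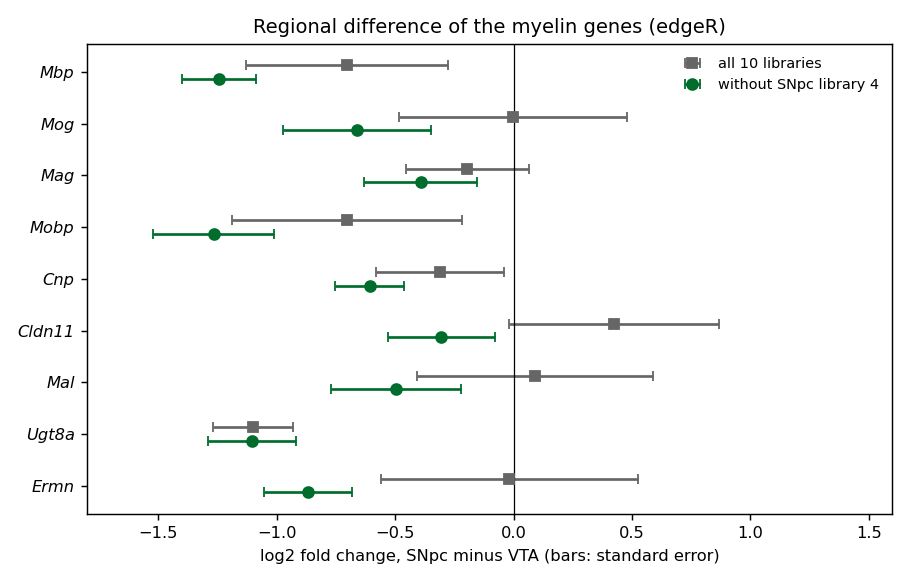
Log2 fold change (SNpc minus VTA) with its standard error from edgeR for each of the 9 genes, fitted on all 10 libraries (squares) and without SNpc library 4 (circles). Ugt8a keeps its value of -1.10, while the other 8 genes move to the VTA side and their error bars shorten when the library is left out.

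Per length the order of the levels depended on the region and on the length used. In VTA the mean level, as CPM per kilobase of all annotated exons, was 30.02 ± 4.21 for Cnp and 29.3 ± 4.51 for Mbp (SD, n = 5), which did not differ beyond their spread, then 18.99 for Mobp and 13.1 for Mal. Ugt8a followed at 10.01 ± 1.19, Ermn at 8.64 ± 1.68, Mog at 6.51 ± 1.57 and Cldn11 at 5.49 ± 0.914. The ranges of mean ± SD overlapped between neighbours in that order, and Mag was lowest at 2.60. In SNpc without library 4 the level was 18.9 ± 3.97 for Cnp and 11.8 ± 2.79 for Mbp (SD, n = 4), then 8.88 for Mal and 7.55 for Mobp. Ermn (4.55), Ugt8a (4.46), Cldn11 (4.26) and Mog (3.94) lay close together there, and Mag was lowest again at 1.90. With SNpc library 4 included, Mobp stood at 11.7, Ermn at 8.53, Cldn11 at 7.36, Mog at 6.51 and Ugt8a at 4.67 in SNpc. Divided by the median length of the coding transcripts and averaged over all 10 libraries, Mobp led with 211 CPM per kilobase, followed by Mbp with 103 and Cnp with 41.8. The annotation lists short and long Mobp transcripts, with a median of 498 bases against 6849 exonic bases in all. Mag was the lowest with either length over all 10 libraries.

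The make-up of the myelin signal also varied between libraries. Mbp supplied from 29.1% to 38.1% of the summed CPM of the 9 genes in SNpc and from 34.1% to 42.0% in VTA. Mobp supplied 19.8% to 22.5% in VTA and 12.97% to 21.8% in SNpc. The share of Ugt8a was 5.48% to 7.48% in SNpc libraries 1, 2, 3 and 6 and 6.70% to 8.15% in VTA, but 2.48% in SNpc library 4. That of Ermn was 8.84% in SNpc library 4 and no higher than 6.90% in the other libraries. Mog took 4.60% in SNpc library 1 and 1.12% in SNpc library 6, a wider range than the 1.54% to 2.21% of VTA. SNpc library 4 thus stood apart in the shares of Ugt8a and Ermn as well as in the amount of myelin RNA. Other SNpc libraries held the highest shares of other genes. Mal took 11.1% and Cldn11 3.85% in SNpc library 6, and Cnp took 24.7% in SNpc library 1.

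**Figure D3:**
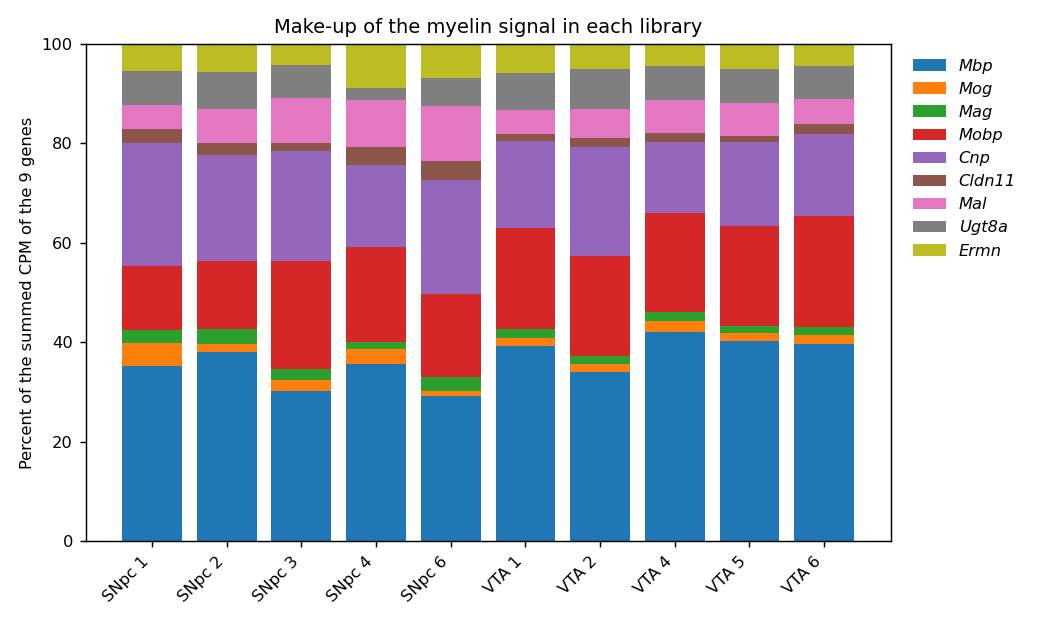
Share of each gene in the summed CPM of the 9 myelin genes, in percent, for each library. The Ugt8a segment narrows to 2.48% in SNpc library 4, and the Ermn segment is widest there, at 8.84%.

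SNpc library 4 exceeded the mean of the other SNpc libraries more than 2-fold for 7 of the 9 genes, against 7.89% of all genes tested. The ratio was 5.39 for Ermn, 4.64 for Cldn11, 4.25 for Mog, 3.84 for Mal, 3.72 for Mobp, 3.59 for Mbp and 2.41 for Cnp. It was 1.98 for Mag and 1.23 for Ugt8a. On the scale of log2 (CPM + 0.1) the median of the 9 was 1.90, against -0.03 over all genes tested. With SNpc library 4 kept out of the reference, Mobp in SNpc library 3 was 2.22-fold above the mean of SNpc libraries 1, 2 and 6, and no other of the 9 genes exceeded 2-fold in SNpc libraries 1, 2, 3 or 6.

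**Figure D4:**
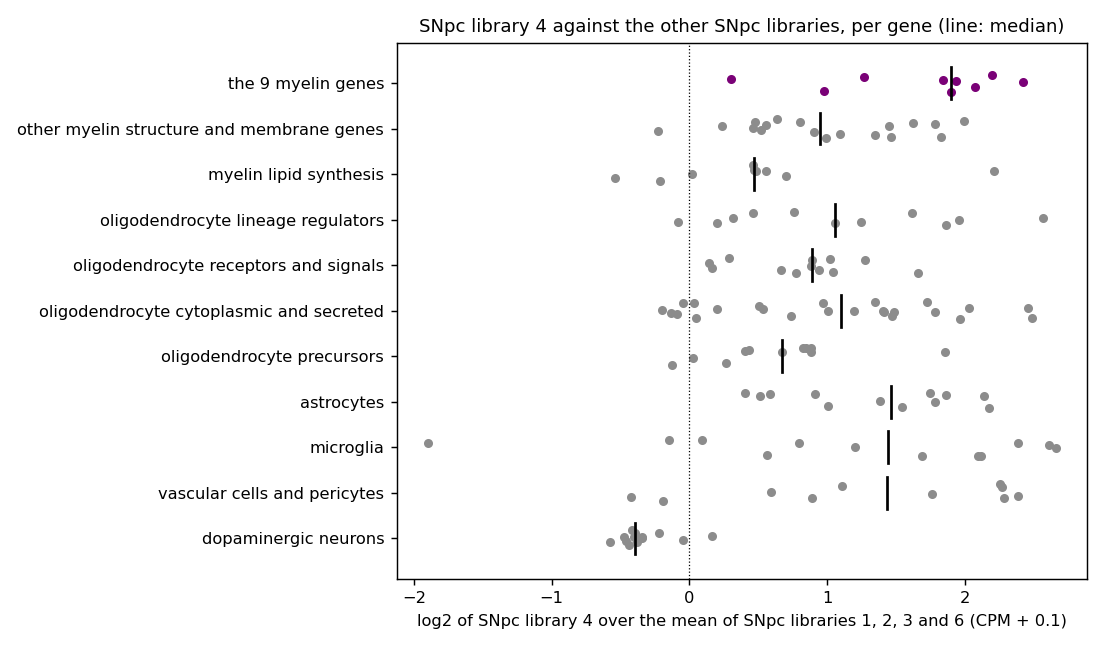
Log2 ratio of SNpc library 4 to the mean of SNpc libraries 1, 2, 3 and 6 (CPM + 0.1) for each tested gene of 11 lists, with a line at the median of each list. The 9 myelin genes have a median of 1.90 and the dopaminergic genes of -0.39.

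Other genes of the sheath and of the cells that make it were read from lists, whose counts stand against 20.4% of all genes tested called higher in VTA and 17.8% higher in SNpc, or 20.1% and 20.9% without SNpc library 4. Of 18 further myelin membrane genes, 6 were called on the VTA side and 1 on the SNpc side, and 9 and 1 without SNpc library 4. Omg, which oligodendrocytes share with neurons, was the 1 gene higher in SNpc (0.76, edgeR adjusted p = 3.97e-05).

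The enzymes of myelin lipids were mixed. Of 9, 5 were called higher in VTA and 1, Degs1, higher in SNpc, or 6 and 2 without SNpc library 4, when Ugcg, which makes glucosylceramide, also passed on the SNpc side. Among those called higher in VTA was Elovl7, a fatty acid elongase (-0.97). The genes that work beside Ugt8a were picked out after their values were seen. Fa2h, which hydroxylates the fatty acid of galactosylceramide, stood at 39.8 CPM in SNpc library 4, 13.2 to 37.2 CPM in the other SNpc libraries and 56.1 to 100.5 CPM in VTA (log2 fold change -1.19, edgeR adjusted p = 0.00248). Gal3st1, which adds the sulphate that turns galactosylceramide into sulphatide, was at 7.73, 4.44 to 7.47 and 9.32 to 13.4 CPM (-0.99, edgeR adjusted p = 0.00225). Both kept the regions apart with SNpc library 4 included. Aspa, which frees acetate from N-acetylaspartate, was the 1 gene of the 9 more than 2-fold above the mean of the other SNpc libraries in SNpc library 4, at 33.3 CPM against 3.34 to 9.89 in the other SNpc libraries.

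Regulators of the lineage were also unlike each other. Of 11, 6 were called on the VTA side with all libraries and 10 without SNpc library 4, and 0 on the SNpc side. Myrf, the regulator whose letters were searched above, stood at 26.3 CPM in SNpc library 4, 17.8 to 43.2 CPM in the other SNpc libraries and 74.2 to 92.4 CPM in VTA (log2 fold change -1.56 ± 0.18 SE, edgeR adjusted p = 7.77e-06). Myrf thus had its values ordered as those of Ugt8a were. Sox10 and Olig1, chosen after their values were seen, had the order of Mbp instead. Sox10 was at 19.2 CPM in SNpc library 4, 4.04 to 5.88 CPM in the other SNpc libraries and 8.58 to 15.4 CPM in VTA, and Olig1 at 27.8, 5.55 to 11.6 and 15.0 to 21.3 CPM. Sox8 had that order too. Olig2, at 5.53, 2.36 to 3.77 and 5.78 to 11.3 CPM, kept the regions apart with SNpc library 4 included (-1.18, edgeR adjusted p = 0.00335). So did Zfp488, St18 and Znf536. Of 12 receptors and signals of oligodendrocytes, 7 were called higher in VTA and 0 in SNpc, and 8 and 0 without that library, with Efnb3 (-1.33) and Adora1 (-1.01) at the smallest p. Of 24 cytoplasmic and secreted proteins 5 were called on the VTA side and 4 on the SNpc side, which is near the 20.4% and 17.8% of all genes, and without it 10 and 4, against 20.1% and 20.9%. Many of these genes are also expressed in neurons, among them Pex5l (1.11), the gene of that list with the smallest p.

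Summed markers of other cells were also higher in SNpc library 4 than in the other SNpc libraries, though not every gene of each list was. Summed over 12 astrocyte genes, SNpc library 4 held 783 CPM, the other SNpc libraries 465 to 510.4 CPM and VTA 684 to 864 CPM. Over 11 genes of oligodendrocyte precursors the values were 153, 93.5 to 109 and 131 to 169 CPM. The 12 microglial genes gave 72.6, 46.9 to 67.7 and 56.5 to 75.7 CPM, and the 12 vascular and pericyte genes 17.0, 4.55 to 6.78 and 9.28 to 123 CPM. In all 4 sums SNpc library 4 lay above the other SNpc libraries. Gene by gene, its CPM was more than 2-fold above their mean for 8 of 12, 2 of 11, 7 of 12 and 7 of 10 tested genes. After 0.1 CPM was added to both values these numbers were 8, 1, 7 and 6, against 7.89% of all genes tested. The precursor count of 1 of 11 is near that share. Much of the precursor sum was Lhfpl3, at 84.8 CPM in SNpc library 4 and a mean of 53.3 CPM in the other SNpc libraries. Cspg4 (3.82 against 3.76 CPM) and Cacng4 (4.52 against 4.95 CPM) of that list hardly differed. With all libraries 4 astrocyte, 7 precursor, 2 microglial and 3 vascular genes were called higher in VTA, against 20.4% of all genes tested, and 0, 0, 1 and 0 in SNpc, against 17.8%. The microglial count is no larger than that background. Without SNpc library 4, 8 astrocyte, 7 precursor, 1 microglial and 3 vascular genes were called higher in VTA, against 20.1%, and 0, 0, 1 and 0 in SNpc, against 20.9%. Of 6 genes of peripheral myelin, which Schwann cells make, 2 passed the filter, Pmp22 and Ncmap. Among the genes at 0 in at least 1 library were Matn4 of the precursor list, C1qa and Trem2 of the microglial list, Cldn5 of the vascular list and Prx, Pmp2 and Egr2 of the peripheral list. In the astrocyte list 0 genes were at 0 in any library. The upper vascular value is that of VTA library 1. The microglial receptor P2ry12 ran from 12.3 to 27.1 CPM in SNpc and from 30.9 to 44.5 CPM in VTA, and SNpc library 4 stood at 20.1 CPM among the other SNpc libraries. The part of these cells in the myelin values was not tested.

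The genes whose profile over the 10 libraries was most like the mean of the 9 were ranked among the 10163 genes whose mean log2 CPM reached 3. Likeness was the root mean square difference between centred log2 CPM values, so that a small value means a like profile. Among the 10 nearest genes outside the myelin and oligodendrocyte lists were Epb41l3 (0.22), Clic4 (0.24), Glul (0.25), Gstm1 (0.25), Gabrb2 (0.26), Snhg11 (0.27), Csrp1 (0.29), Gad2 (0.29) and Gm19461 (0.29), in log2 units. Glul, glutamine synthetase, is a gene of astrocytes and oligodendrocytes, and Gad2 makes GABA in inhibitory neurons. Gad2 stood at 221 CPM in SNpc library 4, with means of 81.2 CPM in the other SNpc libraries and 188 CPM in VTA. Of the 51 other oligodendrocyte list genes with that level, 13 were among the 100 nearest of the 10163, among them Car2 (0.13) and Plekhb1 (0.17). Most of the 51 were farther away, with a median rank of 625. Of the 9 genes themselves, Cnp (0.20) and Mbp (0.25) were nearest to their mean and Ugt8a (0.51) and Mog (0.51) farthest. Each of the 9 is part of that mean, so these values are not comparable with those of other genes. After the mean of each region was subtracted, 19 of the 51 were among the 100 nearest, and the median rank of the 51 was 302. Snhg11, Tgfa, Tia1, Egr1, Timp3, Sh3rf1, Sparcl1, Snrnp48, Gad2 and Epb41l3 were then the 10 nearest outside the lists.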

How the data were processed

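The authors deposited raw read counts, whole numbers for each gene, in 12 columns. The submitters' processing notes name TopHat2 2.0.8 and mm10. The sources used here name no counting program, annotation or strand setting. RNA was copied with the NuGEN Ovation V2 kit and read from one end, per the labels' protocols. No column lacked a sample and 0 lines named no gene.

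Identical columns were counted once, under the names VTA library 2 and SNpc library 4, though the columns do not tell which of the 2 samples each came from, and 10 libraries were left. Genes were filtered with filterByExpr, scaled by TMM and tested with the robust quasi-likelihood test of edgeR 4.0.16 in R 4.3.3, with region as the only term and Benjamini-Hochberg adjustment over all genes tested. Log2 fold changes are SNpc minus VTA, log2 CPM used a prior count of 2, and the code was tested on simulated data. Coordinates, lengths and exon overlaps are from GENCODE M21 on GRCm38 (mm10). Alternatives used limma 3.58.1, DESeq2 1.42.0, other scales and filters, a length and GC trend, a replicate block and each library left out.

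Genes were named by rule: all 9, and from each of 11 other lists the 2 most abundant tested genes and the 2 with the smallest p, given where a result turned on them, and the 10 most alike in profile. Some genes that the rule names are not reported here. The genes and lists were chosen with earlier results of these data known.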

Additional observations from a re-analysis of the deposited data

Results flagged for a closer look

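In 20 sets of 5 libraries (the 9 genes and their sum, in each region), the gap between the highest or lowest library and its nearest neighbour was divided by the range of the set and compared with the critical value of Dixon's test, 0.71, which chance passes in about 1 set in 20. SNpc library 4 stood apart on the high side in 5 sets, where the share was 0.843 for Mbp, 0.727 for Mog, 0.851 for Cldn11, 0.900 for Ermn and 0.767 for the summed CPM of the 9 genes. These 5 sets share that library and are not independent. No VTA set passed. For Mobp, Cnp, Mal and Mag the same library was the highest of SNpc, and the share did not reach the critical value.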

How the results depend on the processing

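With all libraries 1 myelin gene was called higher in VTA. With each library left out in turn this ran from 1 to 5, and the 5 came from leaving out SNpc library 4, while each of the other 9 fits gave 1. Over all genes, the number higher in VTA ran from 2790 to 3193 in these fits. In fits added after the data were seen, leaving out that library gave 5 with DESeq2, 5 with library totals as the scale and 6 with the length and GC trend removed, where Mog also passed (edgeR adjusted p = 0.0341). In that order these fits called 3678, 3789 and 2827 of all genes higher in VTA. The edgeR fit without that library called 3193 of 15904. With that library kept, the count was 3 with limma-voom (Mbp, Mobp and Ugt8a), which called 3416 of all genes higher in VTA, against 3203 with edgeR. The count of myelin genes higher in SNpc was 0 in every fit run. DESeq2 gave no adjusted p for Ermn with all libraries. Over all genes tested, the 5996 calls became 3729 with the replicate block together with the length and GC trend.

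Same-numbered libraries did not deviate together (correlations from -0.0723 to 0.0443 over 4 pairs, 1 of 4 best with its own number), so the numbers were not taken to pair the libraries. With the replicate block over those 4 pairs 2 myelin genes were called higher in VTA, Mbp (-0.96, edgeR adjusted p = 0.0299) and Ugt8a, and the same 2 with the length and GC trend as well (Mbp -1.03, edgeR adjusted p = 0.0438). Over all genes, those higher in VTA went from 3203 to 2543 and 2222, and those higher in SNpc from 2793 to 1789 and 1507. The fit leaves out SNpc library 3 and VTA library 5. SNpc library 4 may equally be number 5, and VTA library 2 number 3, since those columns are identical, so the pairs and every value of this paragraph rest on the numbers kept, and the other numberings were not run.

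Every value that turned in sign missed the threshold after turning. The log2 fold change of Mog was 0.016 with RLE size factors, 0.016 with DESeq2, 0.0084 without the filter and 0.37 with all 12 columns, and ran from -0.66 to 0.24 with a library left out. That of Mal was -0.25 with limma-voom, -0.31 and -0.44 with the replicate block without and with the length and GC trend, and -0.046 and -0.026 with that trend removed and the scale kept or refitted, and ran from -0.50 to 0.33. Without SNpc library 4, Mal had -0.60 with the trend removed, -0.52 with DESeq2 and -0.63 with library totals, Cldn11 -0.37, -0.33 and -0.44, Aldoc -0.018, -0.049 and -0.15, and Lhfpl3 -0.052, -0.050 and -0.16. Ermn had 0.10 and 0.12 with the trend removed, 0.39 with 12 columns and a range of -0.87 to 0.19, and Cldn11 a range of -0.31 to 0.61. Aspa had 0.19 with 12 columns and ran from -0.85 to 0.13. With a library left out, Aldoc ran from -0.021 to 0.11, Lhfpl3 from -0.024 to 0.15 and Flt1 from -3.84 to 0.20, the last without VTA library 1. The cause of each was not tested. Of 206 alternative values of the 9 genes, 154 kept their sign and side of the threshold, 21 kept the sign and passed where the fit on all libraries did not, and 31 turned in sign.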
